A study of Mus musculus with 2 samples.

Results

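The m6A writer complex was examined through the 8 genes that encode its subunits, namely Mettl3, Mettl14, Wtap, Virma, Zc3h13, Rbm15, Rbm15b and Cbll1. The genes were chosen by symbol, and all 8 of them were found among the 20938 genes measured by RNA-seq. The samples were splenic Treg cells isolated on day 7 after islet transplantation, and each genotype, Foxp3-Mettl14f/+ cKO and littermate control, was represented by 1 library. The recipients were diabetic after streptozotocin, had a C57BL/6J background and carried islets of BALB/c donors, and neither group received the tolerance-inducing antibodies. In the cKO mice the Cre recombinase is driven by the Foxp3 promoter, so that the floxed Mettl14 allele is cut in cells that express Foxp3, and the mice carry 1 floxed allele. The methods give the littermate controls as Mettl14f/f, which would mean that floxed alleles without the Cre were present in the control as well. They also identify these controls by the band of the wild-type sample, so whether the controls carried loxP sites is not clear. The sample labels call the second library KD and describe its genotype as a knockdown of Foxp3, whereas the protocol text names Foxp3-Mettl14f/+ cKO mice, and it is therefore called the library labelled KD. Age, sex, the number of animals pooled and the exons between the loxP sites are not given in the sources used here.

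m6A is a methyl group placed on adenosines inside mRNA, mostly in a short sequence context around a GGAC core. METTL3 carries the catalytic site and transfers the methyl group from S-adenosylmethionine, and METTL14 has a similar fold without catalytic activity and helps to hold the RNA. This pair is the core of the writer. The accessory subunits place the core on its targets: WTAP binds the core and keeps it in nuclear speckles, VIRMA is the large scaffold, ZC3H13 anchors the complex in the nucleus, RBM15 and RBM15B bind RNA and recruit the complex, and CBLL1, also called HAKAI, is a RING finger protein related to E3 ubiquitin ligases. In T cells the mark is known to influence mRNA decay, including that of transcripts of the SOCS family, and thereby homeostasis and Treg function.

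The difference between both core subunits can be read in their coding sequences, and the short stretch around the motif that METTL3 uses for catalysis is shown for each of them from 5′ to 3′ on the coding strand, since of the 8 writer genes the core pair differed most between the libraries. The capitals mark the 4 codons of the motif, which spell aspartate, proline, proline and tryptophan in METTL3 and glutamate, proline, proline and leucine in METTL14.
Mettl3: gtgatggctGACCCACCTTGGgatattcac
Mettl14: attctcctgGAGCCCCCTCTGgaagaatac
The Mettl3 stretch lies at chr14:52297572-52297601 of GRCm38 on the minus strand, in exon 6 of 11, and its capitals encode residues 395 to 398. The Mettl14 stretch lies at chr3:123374796-123374825 on the minus strand, in exon 7 of 11, and its capitals encode residues 192 to 195. Both stretches were read from GENCODE vM21 transcripts, and each motif was found 1 time in its coding sequence.

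The deposited values are called levels here, and they amount to reads after division by a size factor. Every value was a whole multiple of the value of 1 read, to within 0.001 read, which gave back 20239325 control reads and 18327535 KD reads. Both sample titles are numbered as replicate 1, but no second library of either genotype was available here, so the differences below lack any check by replicates. The 95% intervals rest on the recovered reads and are exact if these reads are independent. They hold counting error alone, because there is 1 library per genotype. Molecules were not tagged, so copies of a molecule may have been read more than once. The intervals may then be too narrow even for counting error, which below means that of independent reads. The floor of 3 reads corresponds to a level of 2.90 in the control library and 3.41 in the library labelled KD, far under the level of every writer gene. Changes are given as the log2 of the KD level plus 1 over the control level plus 1, and the 16659 genes whose mean level reached 1 were compared.

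Mettl14, the gene targeted by the Cre, is a minus-strand gene of chromosome 3, between positions 123368297 and 123386108 of GRCm38. The control library had a level of 917 from 948 reads, and the library labelled KD had 741 from 652 reads. The library labelled KD was thus 19.1% lower, a log2 change of -0.31 (95% counting interval -0.45 to -0.16). The gene was well detected in both libraries and the difference was larger than counting error, but it did not reach the fold change of 1.5 that the methods give. Among the 4576 genes whose mean level lay between 0.5 and 2 times that of Mettl14, 21.7% had a lower log2 change, and the middle 90% of them ran from -0.70 to 0.85. A total of 780 genes lay within 0.05 of the log2 change of Mettl14, and none of them is named for this likeness. The deposited value counts the whole gene. It therefore includes reads from exons outside the deleted part and from cells that did not express the Cre. For Foxp3-Mettl14f/+ mice it also includes reads from the allele without loxP sites, which the Cre leaves intact.

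Mettl3, the catalytic subunit, showed the largest difference of the 8 genes. The control library had a level of 1153 from 1192 reads, and the library labelled KD had 801 from 704 reads. The level was 30.5% lower in the library labelled KD, with a log2 change of -0.53 (interval -0.66 to -0.39). Of the 4564 genes at a similar mean level, 8.57% had a lower log2 change. It is a minus-strand gene of chromosome 14, between positions 52294841 and 52305128. Its exons overlap those of Tox4, a gene on the opposite strand, by 933 bases, and of the 5525 distinct 50-base stretches of its transcripts 18.4% also occur in transcripts of other genes when strand is ignored. Whether the authors counted by strand is not given, so reads of both genes might be mixed. Tox4 itself, looked at because of this overlap, had levels of 2493 and 2613, a log2 change of 0.068 (interval -0.014 to 0.15).

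The accessory subunits lay closer to equality, and their log2 changes ran from -0.11 to 0.18 with a median of 0.012. Wtap, the adaptor of the core, had a level of 2738 in the control library and 2749 in the library labelled KD, a log2 change of 0.0057 (interval -0.073 to 0.085). Virma, the scaffold, had levels of 3677 and 3845, a log2 change of 0.064 (interval -0.0029 to 0.13). Both intervals include 0, so these differences could not be told from counting error. Zc3h13, the nuclear anchor, had levels of 3642 and 3365, a log2 change of -0.11 (interval -0.18 to -0.044). It was the accessory gene with the lowest value, and 27.3% of genes at a similar level had a lower one.

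The RNA-binding pair of the complex did not differ beyond counting error. Rbm15 had levels of 1961 and 1987, a log2 change of 0.019 (interval -0.074 to 0.11). Rbm15b, its relative that serves the same recruiting role, had levels of 1421 and 1390, a log2 change of -0.032 (interval -0.14 to 0.078). The exons of Rbm15b overlap those of Dcaf1 by 75 bases on the opposite strand and those of Manf by 14 bases on the same strand, a small part of its 6511 exonic bases. Cbll1 was the writer gene with the highest value: the control library had a level of 869 from 898 reads, and the library labelled KD had 984 from 865 reads. This gave a log2 change of 0.18 (interval 0.043 to 0.32), and 67.7% of genes at a similar level had a lower value. The exons of Cbll1 share 572 bases with Gm29542, an opposite-strand gene whose symbol is not among the genes measured. Of the distinct 50-base stretches of Cbll1 transcripts 13.5% also occur in transcripts of other genes when strand is ignored. For Wtap this share was 6.36%, so reads might be mixed for these genes as well.

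None of the 8 writer genes differed by 1.5-fold, whereas 41.4% of all genes compared did so in either direction. These were made up of 24.2% of all genes compared that were at least 1.5-fold lower in the library labelled KD and 17.2% that were at least 1.5-fold higher. Many of the genes in these shares have low counts, and among the 6457 genes with a mean level from 500 to 5000, the range that holds the writer genes, 6.38% were lower and 10.4% were higher by that fold. The median log2 change was -0.013 over the 8 writer genes, -0.42 over the core pair and -0.042 over all genes compared. An exact two-sided binomial test on the recovered reads, scaled by library totals and adjusted by Benjamini-Hochberg over 14863 genes, was also run. What it compares is a pair of libraries rather than the genotypes, and 72.3% of the genes tested had an adjusted p under 0.1, so that a small p carries little weight here. With the additional requirement of 1.5-fold it called 20.3% of the genes lower and 12.6% higher. Of the writer genes it called Mettl3 lower (exact binomial test, adjusted p = 5.86e-19), and with the deposited scaling in place of library totals it called none of them, against 17.6% of the genes lower and 14.9% higher. For Mettl14 the adjusted p was 1.80e-07 with library totals and 6.84e-05 with the deposited scaling (exact binomial test), with a fold under 1.5 in both cases.

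**Figure D1:**
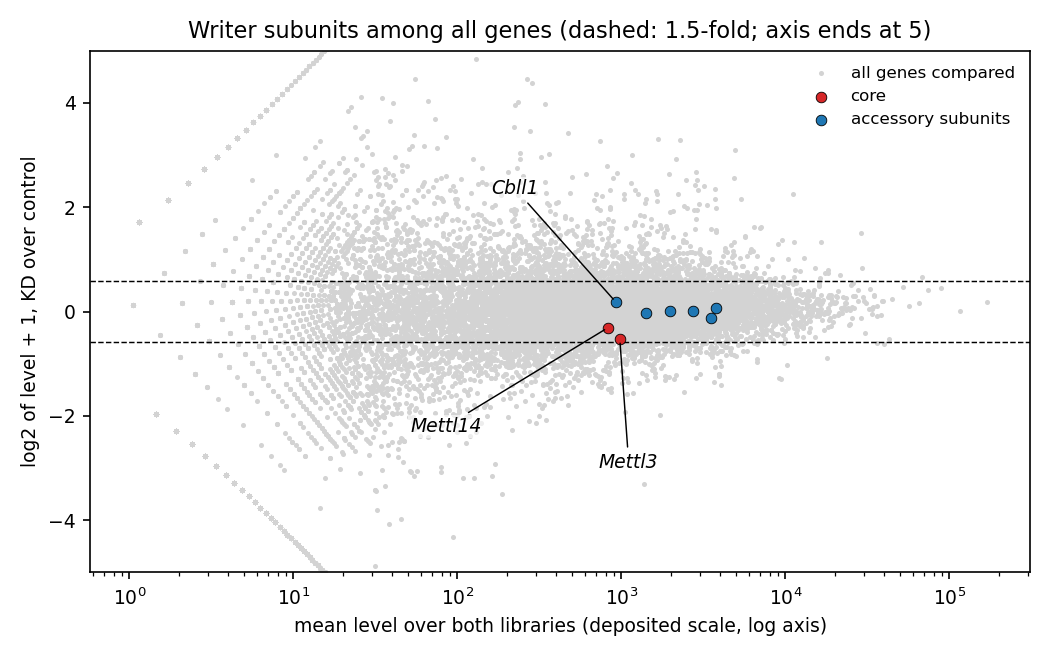
Log2 change (KD over control, level plus 1) on the vertical axis against the mean level of both libraries on a log axis, with 1 grey point per gene compared, red points for the core pair and blue points for the 6 accessory subunits. All 8 writer genes lie between the dashed lines at 1.5-fold, with Mettl3 at -0.53 and Mettl14 at -0.31 as the lowest and Cbll1 at 0.18 as the highest; the axis ends at 5 in both directions, which leaves out 153 genes.

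To compare the subunits with each other, reads were divided by the union exon length of each gene and by the library total, which gives RPKM (reads per kilobase, scaled for depth). On this scale Zc3h13 had the highest level in the control library at 29.6, followed by Virma at 26.3 and Wtap at 22.4. Rbm15 at 13.5, Mettl3 at 11.6, Rbm15b at 11.1 and Cbll1 at 11.1 formed a middle range, and Mettl14 was the lowest at 6.31. In the control library the order of Mettl3 and Rbm15b was within counting error, with a ratio of 1.04 (interval 0.963 to 1.12), and so was that of Rbm15b and Cbll1 at 1.01 (interval 0.926 to 1.10). The other neighbours were separated by more than counting error.

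In the library labelled KD the per-length levels were 25.8 for Virma, 25.7 for Zc3h13 and 21.1 for Wtap, and the first pair was within counting error with a ratio of 1.01 (interval 0.957 to 1.06). The RNA-binding subunits and Cbll1 followed, with 12.8 for Rbm15, 11.8 for Cbll1 and 10.2 for Rbm15b. Mettl3 at 7.57 had moved from place 5 to place 7 of the 8 genes, and Mettl14 at 4.80 was again the lowest. The core pair together held 13.6% of the summed per-length level of the writer genes in the control library (interval 13.1 to 14.1) and 10.3% in the library labelled KD (interval 9.80 to 10.8).

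The place of the core genes depended on the length that was used. The annotated exons of Mettl14 sum to 7419 bases and those of Mettl3 to 5076 bases, whereas the transcripts with their longest coding sequences have 2741 and 2025 bases. With these shorter transcripts the per-length level of Mettl14 was 17.1 in the control and 13.0 in KD, at place 6 in both. The per-length level of Mettl3 was then 29.1 and 19.0, at place 3 and place 5, and Wtap took the first place in both libraries with 67.9 and 64.0. The core pair held a smaller part of the per-length sum in the library labelled KD with each of the 4 lengths tried. This had to be so with any lengths and adds no separate check. A length is the same in both libraries, and each core gene had fewer reads per read of each accessory gene in KD.

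**Figure D2:**
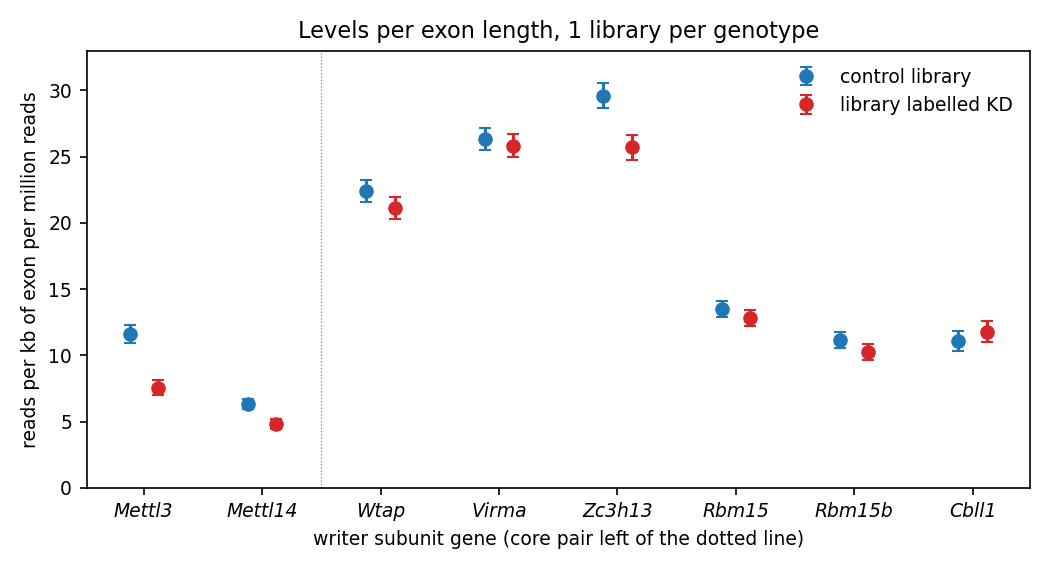
RPKM over the union exon length for each writer gene, in the control library in blue and the library labelled KD in red, with 95% exact Poisson intervals as bars. Zc3h13, Virma and Wtap lie between 21.1 and 29.6, Mettl14 lies lowest at 6.31 and 4.80, and the widest relative gap between the libraries is that of Mettl3 at 11.6 and 7.57.

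Ratios between writer genes within the same library do not depend on how the libraries are scaled, since the size factor cancels. The core pair had 0.145 control reads per accessory read, and 0.108 in the library labelled KD, so that this ratio changed by a factor of 0.744 (exact conditional interval 0.692 to 0.800). All 12 ratios of a core gene to an accessory gene were lower in the library labelled KD with intervals below 1, from 0.613 for Mettl3 over Cbll1 to 0.875 for Mettl14 over Zc3h13. Within the core, Mettl14 had 0.795 reads per Mettl3 read in the control and 0.926 in KD, a factor of 1.16 (interval 1.01 to 1.34). The targeted gene was thus not lower relative to Mettl3, the other core gene.

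Ratios among the accessory genes lay closer to 1. Of the 15 ratios among them, 9 had intervals that include 1, and each of the remaining 6 involved Zc3h13 or Cbll1. These 15 factors ran from 0.816 for Zc3h13 over Cbll1 to 1.13 for Virma over Zc3h13. The 28 ratios share genes and are not independent, and about 5% of such intervals would miss by counting error alone.

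**Figure D3:**
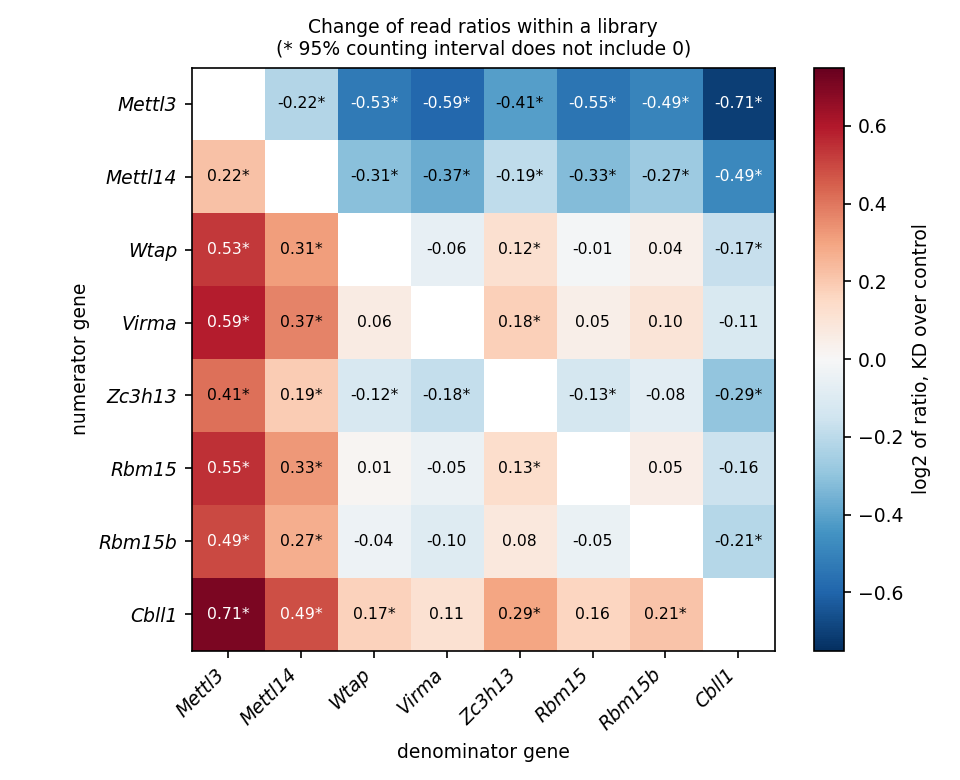
Log2 of the factor by which each ratio of reads (row gene over column gene, within a library) differed between the library labelled KD and the control library, with blue for lower and red for higher in KD and an asterisk where the 95% counting interval does not include 0. The rows of Mettl3 and Mettl14 are blue against all 6 accessory genes, from -0.71 to -0.19, and most cells among the accessory genes are close to 0.

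Reads can also be set against genes that are expressed in the cells of interest. Foxp3, the Treg transcription factor whose promoter drives the Cre, had levels of 1497 in the control library and 1548 in the library labelled KD, a log2 change of 0.048 (interval -0.058 to 0.15), so the values did not follow the label that names a knockdown of Foxp3. Per Foxp3 read, Mettl14 had 0.613 reads in the control and 0.479 in KD, a factor of 0.782 (interval 0.690 to 0.886). Mettl3 had 0.771 and 0.517 reads per Foxp3 read, a factor of 0.671 (interval 0.595 to 0.757). The sum of the accessory genes changed per Foxp3 read by a factor of 0.968 (interval 0.896 to 1.05), which includes 1. By western blot the paper reports less FOXP3, METTL14 and METTL3 protein in Treg cells of the cKO mice. It presents this blot before the transplantation of these mice, and protein is a different measure from the RNA given here. By flow cytometry on day 7 after transplantation it reports a smaller proportion of Foxp3+ Treg cells. Foxp3 is therefore not known to be a constant reference per cell, and these factors describe reads per Foxp3 read only.

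Against other T cell genes the picture was different. The summed level of 15 T cell genes such as Cd3e, Cd4 and Lck was 59275 in the control and 46691 in KD. Relative to the reads of these genes Mettl14 changed by a factor of 1.03 (interval 0.927 to 1.14) and Mettl3 by 0.881 (interval 0.801 to 0.969), while the accessory sum changed by 1.27 (interval 1.24 to 1.31). Whether Mettl14 was lower in the library labelled KD therefore rested on the reference: it was lower per Foxp3 read and per accessory read, and not different beyond counting error per T cell read. In such bulk samples, fewer cells of a type and less RNA per cell cannot be told apart.

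Markers of other cells differed between the libraries alongside these results, and their counts can be read against the 24.2% of all genes that were at least 1.5-fold lower and the 17.2% that were higher. At mean levels from 500 to 5000 these shares were 6.38% and 10.4%, and the markers lay both inside and outside that range. All 16 B cell genes, such as Cd79a and Cd79b, were at least 1.5-fold higher in the library labelled KD, with a summed level of 13804 in the control and 55752 in KD. All 19 macrophage genes were higher by that fold, with sums of 28418 and 63264, and of these Marco was at 0 in the control library. Of 19 erythroid genes 14 were at least 1.5-fold lower and 1 was higher by that fold, with sums of 66608 and 36520. The higher gene was Hbb-bs, a beta globin named after its values were seen, with 3 control reads and 2626 KD reads (log2 change 9.58, interval 8.46 to 12.29), the highest value among all genes compared. Of 11 CD8 T cell and NK cell genes 7 were at least 1.5-fold higher, with sums of 8064 and 14996, and of 15 granulocyte genes 2 were higher and 3 lower by that fold, with sums of 270161 and 366010. Of 26 cell cycle genes 16 were at least 1.5-fold lower and all 26 had values below 0, with sums of 127450 and 83505. Relative to the cell cycle reads Mettl14 changed by a factor of 1.23 (interval 1.11 to 1.37) and Mettl3 by 1.06 (interval 0.964 to 1.16). The 20 Treg genes were all detected in both libraries and went both ways, from -0.71 to 1.35 with a median of 0.24; 12 were above 0 and 8 below, with 4 at least 1.5-fold higher and 2 lower. The 15 T cell genes summed to 59275 in the control and 46691 in KD, less than the granulocyte genes in both libraries. The B cell and macrophage sums were above the T cell sum in KD only, and the erythroid sum in the control only. Sums of different genes do not give shares of cells. The writer values come from all cells in the samples, and the part of these markers in them was not tested.

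The choice of scaling moved all writer genes by the same amount. Library totals lowered every log2 change by 0.090, which brought Mettl3 to -0.62, past 1.5-fold, where 26.6% of all genes were at least 1.5-fold lower, and Mettl14 to -0.40. The median of ratios and TMM gave -0.54 and -0.55 for Mettl3 and -0.32 and -0.33 for Mettl14. Setting Foxp3 equal gave -0.57 for Mettl3 and -0.35 for Mettl14. Setting the T cell genes equal raised every log2 change by 0.34 and turned the sign of Mettl14, to 0.037 (interval -0.11 to 0.18), while Mettl3 stayed below 0 at -0.18 (interval -0.32 to -0.047).

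Signs also turned for accessory genes, including Zc3h13, whose interval with the deposited scaling did not include 0. With the T cell genes equal the accessory genes ran from 0.23 for Zc3h13 to 0.52 for Cbll1, and the median of all genes moved to 0.30. That scaling also turned the balance of all genes past 1.5-fold, of which 61.7% were higher in place of 41.6%. Wtap, Virma, Rbm15 and Rbm15b took both signs among the 6 scalings, and Zc3h13 was above 0 with the T cell genes equal and below 0 with the other 5. Cbll1 was above 0 and Mettl3 below 0 with each of the 6. The interval of Cbll1 included 0 with library totals (-0.047 to 0.23) and with Foxp3 equal (-0.0056 to 0.27). Apart from the T cell genes, the scalings differed from the deposited one by at most 0.090, so they are hardly separate checks. Cell cycle reads were not among the scalings, and relative to them the factor of Mettl3 was 1.06 (interval 0.964 to 1.16).

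**Figure D4:**
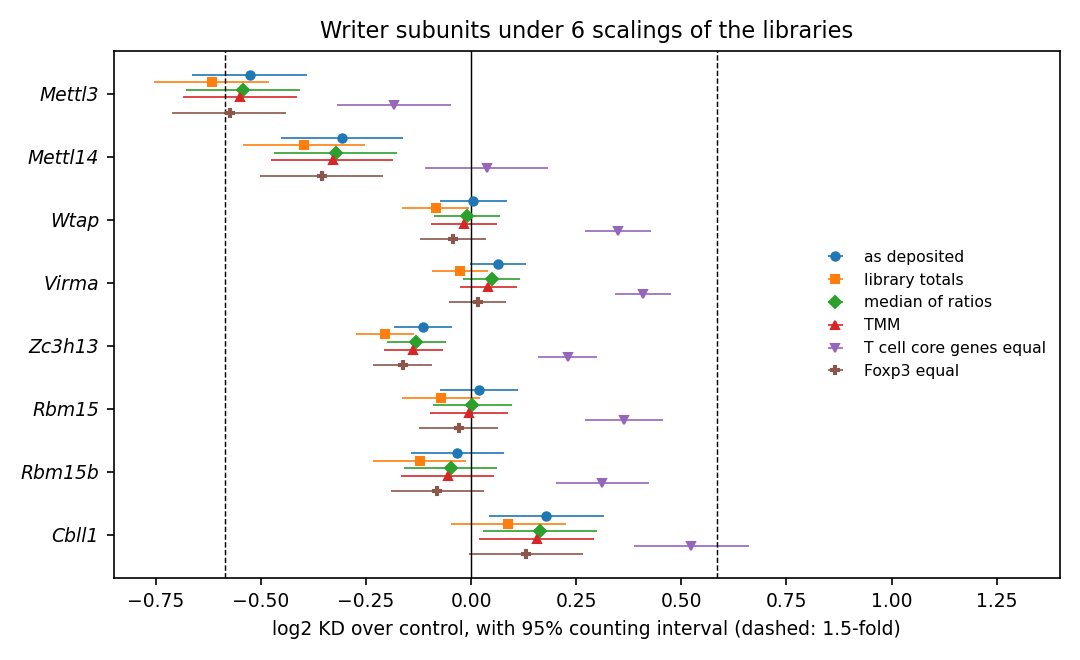
Log2 change of each writer gene under 6 scalings of the libraries, each marked by a symbol and colour, with 95% counting intervals as bars and dashed lines at 1.5-fold. Mettl3 lies left of 0 under each scaling, from -0.62 to -0.18, whereas Mettl14 lies between -0.40 and -0.31 except with the T cell core genes equal, where it is at 0.037.

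The other RNA m6A methyltransferases and their partners act outside the writer complex, on small nuclear RNA, ribosomal RNA or the mRNA cap. All 6 of these genes were compared, with a median log2 change of -0.41. Of these, 2 were at least 1.5-fold lower in the library labelled KD and none was higher, against 24.2% and 17.2% of all genes compared. At mean levels from 500 to 5000 the shares of all genes were 6.38% lower and 10.4% higher, with Mettl5 and Zcchc4 under that range. With the T cell genes equal the median was -0.069. Mettl5, which methylates ribosomal RNA, had levels of 306 and 172, a log2 change of -0.83 (interval -1.12 to -0.55). Mettl4, which methylates a small nuclear RNA, had levels of 1313 and 797, a log2 change of -0.72 (interval -0.85 to -0.59). Mettl16, which methylates U6 RNA and the Mat2a transcript, had levels of 1124 and 776, a log2 change of -0.53 (interval -0.67 to -0.40), close to the value of Mettl3. Zcchc4 was at -0.29, and the other two genes had values above 0, Pcif1 at 0.24 (interval 0.15 to 0.34) and Trmt112 at 0.069 (interval -0.082 to 0.22). Per read of this group, the core pair of the writer changed by a factor of 0.857 (interval 0.791 to 0.928).

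The genes that supply the methyl donor S-adenosylmethionine and clear its product had a median of -0.25, with all 5 values below 0 and none past 1.5-fold. Among all genes with a mean level from 500 to 5000, the range that holds these 5, 6.38% were lower and 10.4% higher by that fold. With the T cell genes equal the median of the 5 genes was 0.094. Of the erasers, which remove the mark, Fto had levels of 1442 and 1271, a log2 change of -0.18 (interval -0.30 to -0.069), and Alkbh5 had levels of 3880 and 3879, a log2 change of -0.00050 (interval -0.067 to 0.066). The 13 readers, which bind the mark, had a median of -0.094, with 1 gene at least 1.5-fold lower and 1 higher, against 24.2% and 17.2% of all genes compared. These were Igf2bp1, with 63 control reads and 3 KD reads (log2 change -3.81, interval -6.47 to -2.55), and Igf2bp2, with 25 and 39 reads (log2 change 0.85, interval 0.11 to 1.66). Both of them had few reads, unlike the writer genes.

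The 11 subunits of CCR4-NOT, the deadenylase complex through which m6A readers act on mRNA decay, had a median of 0.017 and none past 1.5-fold. Among all genes with a mean level from 500 to 5000, 6.38% were lower and 10.4% higher by that fold. This range holds every subunit of the complex except Cnot1. The accessory writer subunits changed relative to this complex by a factor of 0.9995 for their summed reads (interval 0.971 to 1.03). The core pair changed relative to it by a factor of 0.744 (interval 0.693 to 0.798).

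**Figure D5:**
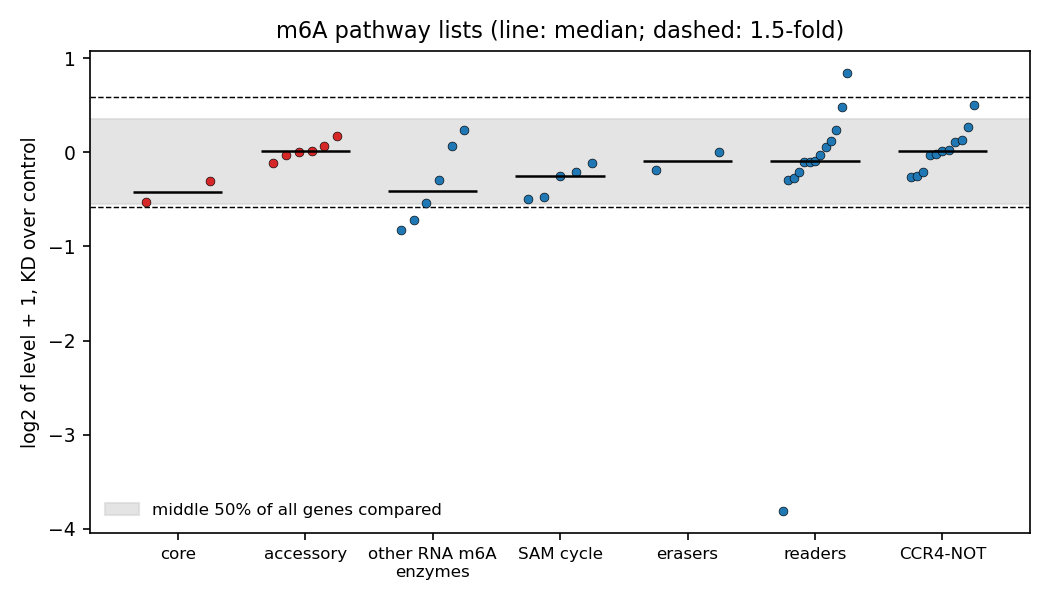
Log2 change (KD over control, level plus 1) of each gene in the m6A lists, with red points for the writer core and accessory subunits, blue points for the other lists, a black line at each median, dashed lines at 1.5-fold and a grey band from -0.55 to 0.35 that holds the middle 50% of all genes compared. The medians are -0.42 for the core, 0.012 for the accessory subunits, -0.41 for the other RNA m6A enzymes, -0.25 for the S-adenosylmethionine (SAM) cycle, -0.091 for the erasers, -0.094 for the readers and 0.017 for CCR4-NOT; the lowest point is Igf2bp1 at -3.81.

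The base composition of the writer genes lay within the usual span. The GC content of their transcripts with the longest coding sequence ran from 40.6% for Cbll1 to 56.4% for Rbm15b, against a median of 49.6% over 20325 coding genes with a span from 40.4% at the 10th to 58.1% at the 90th percentile. Mettl3 at 50.2% and Mettl14 at 47.0% lay in the middle of this span. The letters GGACT, a frequent context of m6A, occurred in the coding sequence of all 8 genes on the coding strand, from 0.693 per kilobase in Rbm15 to 2.04 in Cbll1, and 73.5% of all coding genes hold them in their coding sequence. A match of these letters is a description and not a methylated site.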

How the data were processed

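Treg cells were isolated with a magnetic CD4+CD25+ kit after lysis of erythrocytes, and polyadenylated RNA was taken from the TRIzol extract with Dynabeads. According to the methods the authors aligned the reads to mm10 with TopHat, while the submitters' processing notes name bcl2fastq 2.0, STAR, StringTie and DESeq2 without a role; the counting tool and annotation are not given in the sources used here. Each deposited value is a signal: reads on a gene over the size factor of the library, and 100% of them came out whole. This gave 20239325 control reads on 16187 genes and 18327535 KD reads on 14563 genes.

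Changes used a pseudocount of 1 and a minimum mean level of 1. Intervals at 95% were exact Clopper-Pearson intervals for changes, exact Poisson intervals for levels and exact conditional intervals of the odds ratio for ratios within a library. The exact binomial test used genes with 10 or more reads over both libraries, Benjamini-Hochberg adjustment, an adjusted p under 0.1 and 1.5-fold, a threshold from the methods that leaves the quantity of 0.1 unnamed. It was added because whole reads could be recovered, and it was tested on simulated data. These were independent reads from a shared profile with 200 genes changed by a log2 of 2, without other variation between libraries. The simulation therefore checks the calculation and not how the test behaves on the real libraries. The TMM scaling came from edgeR 4.0.16 and the median of ratios from DESeq2 1.42.0 in R 4.3.3; the rest used Python 3.11.15 with numpy 2.4.6, pandas 2.3.3, scipy 1.17.1 and matplotlib 3.10.9. Positions, lengths and sequences came from GENCODE vM21 on GRCm38. The members and lists were chosen with earlier results of these data known. Named genes were the 8 members, Foxp3, and, in the m6A lists, Fto, Alkbh5, Mettl16 and every gene past 1.5-fold; genes named for an overlap of exons, from a marker list or to complete the other methyltransferases were chosen after their values were seen. Of 18 T cell genes listed, 15 were matched by symbol. From the B cell list 1 gene was left out and is not reported here.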

Additional observations from a re-analysis of the deposited data

How the results depend on the processing

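Of 122 values recomputed under an alternative, 96 stayed within their counting interval or within 1.5 times the count, 26 moved and 0 reversed a called direction. No writer gene reached 1.5-fold in the main setting, so none had a called direction that could reverse. A change of sign did not count as a reversal: Zc3h13 went from -0.11 to 0.23 with the T cell genes equal and was counted as moved. Writer genes at least 1.5-fold lower numbered 1 with library totals and 1 with the binomial test, in both cases Mettl3. With the T cell genes equal, Mettl14 was at 0.037, the writer median at 0.33 and 5075 genes were at least 1.5-fold higher. The number of higher genes was 1722 at 2-fold and 1875 by the binomial test, and the number of lower genes was 2035 at a minimum mean level of 10. The core share (control, then KD) was 19.2% and 14.5% with the longest transcript, 19.4% and 14.6% with the longest coding transcript, and 21.1% and 16.4% with the transcript of the longest coding sequence. The binomial test called 4885 genes, against 3157 with at least 50 reads and 2950 at an unadjusted p under 0.05 with 2-fold. The transcript of the longest coding sequence and the binomial test with the deposited scaling were alternatives chosen after seeing the data. Leaving out either library would leave no comparison. No paired analysis was possible because there is 1 library per genotype. Depth did not limit the writer genes, which had at least 652 reads in each library, but the lack of replicates limits every comparison.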

Other observations

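The values of the core pair and of the other methyltransferases led to a look at all genes whose symbol starts with Mettl, a choice made after these values were seen. The family shares a methyltransferase fold and acts on many substrates besides mRNA, such as transfer RNA and proteins. There are 27 such genes in the tables, of which 25 passed the minimum mean level. Their median log2 change was -0.34, with 21 below 0 and 4 above 0, 7 at least 1.5-fold lower in the library labelled KD and 0 at least 1.5-fold higher, against 24.2% lower and 17.2% higher among all genes compared. Leaving out the genes already described, 20 passed the filter with a median of -0.20, 16 below 0, and 5 at least 1.5-fold lower. The values above 0 belonged to Mettl25 at 0.48, Mettl7a1 at 0.44, Mettl6 at 0.24 and Mettl9 at 0.10. Mettl8, which methylates mitochondrial transfer RNA, had 462 control reads and 258 KD reads, a log2 change of -0.61 (interval -0.83 to -0.38). The other 4 genes at least 1.5-fold lower outside those described had at most 37 reads in the control library. With the T cell genes equal the median of the 25 genes was 0.0046.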
